A study of Sus scrofa with 6 samples.

Results

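PIGR, the polymeric immunoglobulin receptor, and IGLC, the constant region of the immunoglobulin lambda light chain, were followed in small RNA libraries from the pig duodenum. Their members were stretches of genome of 201 bases, here called windows, that the authors listed with a count. A window outside the mitochondrial genome was taken when it translated to at least 25 residues at 70% identity or more to either protein, and every window overlapping such a window by at least 1 base was added. The rule found 61 of 37784 windows, 25 for PIGR (16 by match and 9 by overlap) and 36 for IGLC (34 by match and 2 by overlap). The matches had 70.5% to 82.1% identity for PIGR, whose query was the human protein, and 87.0% to 100% for IGLC, whose query was the pig sequence.

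The study set piglets sensitive to Escherichia coli F18, a cause of diarrhoea and oedema disease in young pigs, beside resistant ones. Sensitivity was read from the FUT1 gene, which encodes a fucosyltransferase, at its M307 position. All 5 piglets were of the Sutai breed, were 28 days old, were kept under one set of conditions and gave duodenal tissue with no treatment named. Piglets 524 and 2129 had the AA genotype (resistant), and piglets 512, 2134 and 2383 had the GG genotype (sensitive). Piglets 524 and 512 were full sibs, and so were 2129 and 2134. Piglet 512 was sequenced in 2 runs, giving 6 libraries from 5 animals. The AA sib of piglet 2383 was not analysed here. The genotype is natural variation, so sibs also differ at other loci.

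PIGR sits on the basal side of the epithelial cells that line the gut. It binds IgA dimers and IgM pentamers that plasma cells under the epithelium release, carries them through the cell and lets them go into the gut lumen with its own outer part, the secretory component, attached. Both light chain classes, lambda and kappa, occur in these antibodies, and the J chain that links their units is needed for binding to PIGR. In the duodenum, PIGR therefore comes mainly from epithelium and IGLC from cells of the B lineage. The libraries were made to read small RNAs. A count here therefore stands for short pieces, mainly in the coding sequence of these messenger RNAs, not for the whole messenger.

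Windows from the stretches described later are printed first, each read in the direction that encodes the protein. A printed window can be listed in 1 library alone, because the exact position moved between libraries, with middle bases spanning up to 22 bases within a site; the sites given later join such neighbours. The middle base of a window was taken as the low end of its reads, from a check on miRNAs. Of 41 windows that held 1 of 12 known miRNAs on the reverse strand, 29 had the miRNA's low end on the middle base or the next 6, and these covered 12 of 12 miRNAs. Another 4 windows held one on the forward strand, with its low end at bases 50 to 57, so the check did not bear out the assumption for forward windows. The lists did not give the strand of the reads, and the build of the genome is not given in the sources used here. All 6 sequences come from the deposited lists. Capitals mark the bases where the reads lay, on the assumption that the middle base is the low end on both strands. In the windows of PIGR domain 5 and of IGLC these are 42 bases, bounded by the middle bases of windows on inverted copies, and in PIGR domain 3 they are the 22 bases from the middle base towards higher coordinates. The first pair, in immunoglobulin-like domain 5 of PIGR, is the first inverted pair of piglet 2129 along the chromosome. Its capitals are the same on both genomic copies, whose windows were paired by likeness of sequence.
PIGR copy 2 domain 5, chr9:132102689-132102889, reverse strand: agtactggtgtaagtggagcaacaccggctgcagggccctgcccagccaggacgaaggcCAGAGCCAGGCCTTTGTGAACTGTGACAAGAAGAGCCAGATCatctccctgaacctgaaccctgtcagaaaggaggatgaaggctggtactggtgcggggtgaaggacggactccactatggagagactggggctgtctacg
PIGR copy 1 domain 5, chr9:131908896-131909096, forward strand: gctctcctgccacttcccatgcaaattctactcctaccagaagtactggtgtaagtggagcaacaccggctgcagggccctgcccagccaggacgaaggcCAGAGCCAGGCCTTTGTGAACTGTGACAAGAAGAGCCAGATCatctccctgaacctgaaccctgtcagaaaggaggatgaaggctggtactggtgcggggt

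The window of PIGR domain 3 is shown because it matched the query best within that domain. It was listed in piglet 2129 alone, with 8 counts.
PIGR copy 2 domain 3, chr9:132105740-132105940, reverse strand: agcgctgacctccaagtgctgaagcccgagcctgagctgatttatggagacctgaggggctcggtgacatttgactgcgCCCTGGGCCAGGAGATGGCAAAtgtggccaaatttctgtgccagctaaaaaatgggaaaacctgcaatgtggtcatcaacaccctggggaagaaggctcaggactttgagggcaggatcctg

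The IGLC windows are shown because their capitals hold the only stretch of either gene that was listed in all 5 piglets.
IGLC copy 2, chr14:49985967-49986167, reverse strand: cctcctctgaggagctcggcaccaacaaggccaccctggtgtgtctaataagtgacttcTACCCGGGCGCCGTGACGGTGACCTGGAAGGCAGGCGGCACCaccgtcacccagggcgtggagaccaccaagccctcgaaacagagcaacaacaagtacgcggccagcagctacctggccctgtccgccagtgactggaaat
IGLC copy 3, chr14:50966297-50966497, reverse strand: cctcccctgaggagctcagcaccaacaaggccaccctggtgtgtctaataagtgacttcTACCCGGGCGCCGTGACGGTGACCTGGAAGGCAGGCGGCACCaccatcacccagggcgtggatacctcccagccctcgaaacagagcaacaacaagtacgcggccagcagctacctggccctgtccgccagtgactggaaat
IGLC copy 1, chr14:49931987-49932187, forward strand: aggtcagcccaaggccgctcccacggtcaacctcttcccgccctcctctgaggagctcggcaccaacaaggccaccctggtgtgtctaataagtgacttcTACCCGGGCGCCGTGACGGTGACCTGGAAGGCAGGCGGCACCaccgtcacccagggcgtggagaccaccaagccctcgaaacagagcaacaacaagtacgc
The capitals are the same in IGLC copies 1, 2 and 3. Over the whole window, IGLC copies 2 and 3 differ at 6 of 201 bases (97.0% identity), with 0 of the 6 in the capitals. Reads from this stretch could not be placed on 1 copy by sequence.

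The 6 libraries held 42354 to 192861 counts in all and listed no window under 5 counts. The sources used here do not say if a count is 1 read or 1 distinct sequence. Piglets 2134 and 2383 had the lowest mitochondrial shares of the counts, 1.66% and 1.97%, against 8.16% to 9.35% in the other 4 libraries. They stand apart for that reason, and both are GG. Nothing in the labels ties this to a batch.

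PIGR was listed in 4 of 5 piglets and IGLC in all 5. The summed PIGR count was 34 in piglet 524, 121 in piglet 2129, 70 and 62 in the runs of piglet 512, 32 in piglet 2134 and 0 in piglet 2383. As a share of all counts this was 0.0604% in piglet 524 (95% Wilson interval 0.0432% to 0.0843%) and 0.0952% in piglet 2129 (0.0797% to 0.114%). The share was 0.0727% and 0.0689% in the runs of piglet 512 and 0.0166% in piglet 2134 (0.0118% to 0.0234%). Piglet 2134, the deepest library, thus had the lowest share among those that listed PIGR, and its interval lay below those of the other listed libraries. For piglet 2383, the shallowest library, a limit of 3 counts would be 0.00708%, but windows under 5 counts are left out of the lists, so PIGR was not detectable there rather than absent. Intervals cover counting error alone, and reads without molecular identifiers are not independent molecules.

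The summed IGLC count was 59 in piglet 524, 153 in piglet 2129, 149 and 141 in the runs of piglet 512, 43 in piglet 2134 and 26 in piglet 2383. Its share was highest in piglet 512, at 0.155% and 0.157%, and was 0.105% and 0.120% in the AA piglets 524 and 2129. It was 0.0223% in piglet 2134 (95% Wilson interval 0.0166% to 0.0300%) and 0.0614% in piglet 2383 (0.0419% to 0.0899%). In every library IGLC had the larger sum of the pair, although sums over windows are not a level per length and reads that match several copies may be counted at each. Both genes had their lowest shares in piglets 2134 and 2383, the libraries with low mitochondrial shares. The part of that feature in the low shares was not tested.

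**Figure D1:**
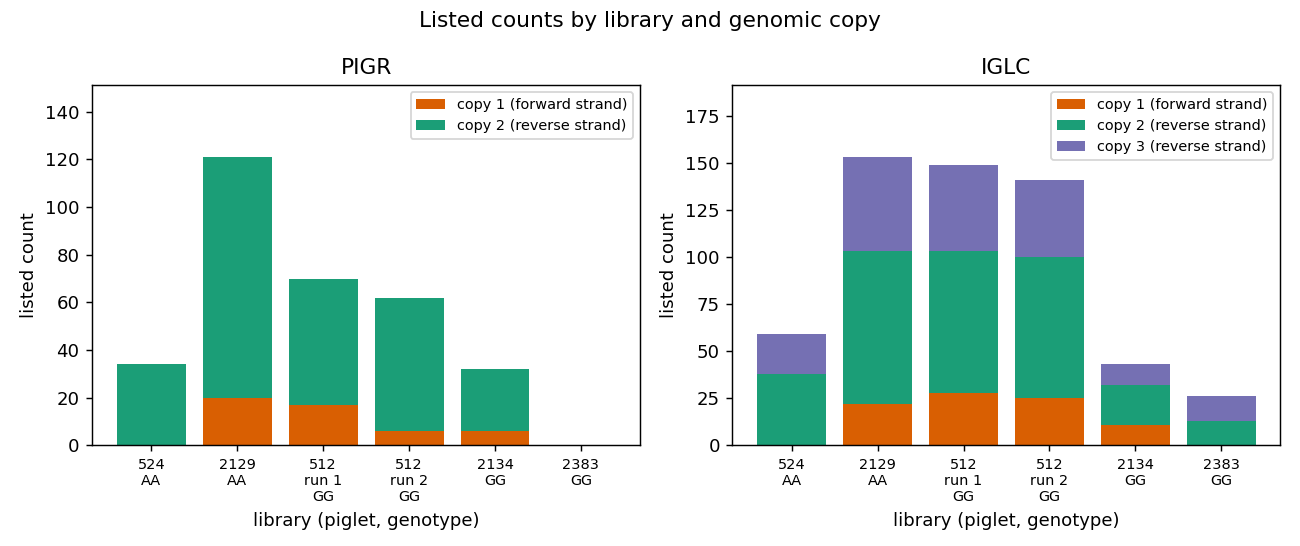
Listed counts (vertical axis) of PIGR (left) and IGLC (right) in each of the 6 libraries, stacked by genomic copy. PIGR ran from 0 in piglet 2383 to 121 in piglet 2129, and IGLC from 26 in piglet 2383 to 153 in piglet 2129; the forward copy 1 was the smallest part wherever it was listed, tied with copy 3 for IGLC in piglet 2134.

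PIGR windows lay at a pair of inverted places on chromosome 9. Copy 1, on the forward strand at chr9:131908883-131909230, held 5 windows, and copy 2, on the reverse strand at chr9:132099858-132107483, held 20. The RefSeq table of the pig assembly Sscrofa11.1 also puts PIGR on chromosome 9, with 1 entry. On copy 2 the matches, those below the identity limit included, fell into 5 blocks that followed the order of the protein. Residues 22 to 117 of the human query (domain 1) lay in 288 bases, followed by 964 bases with no match among the windows. Residues 131 to 351, which cover domains 2 and 3, lay in 1 block of 648 bases, 6 of them in no window. Domain 4 (residues 377 to 443), domain 5 with the start of the linker (residues 493 to 587) and the cytoplasmic tail (residues 672 to 713) each had a block of their own. The counts of PIGR are therefore described by these pieces.

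Domain 1, the outermost domain, makes the first contact with polymeric immunoglobulin. Its windows held 11 counts in piglet 2129 and 6 in piglet 2134, and none was listed in the other 4 libraries. Domain 2 had no member. Windows matching it were listed in piglet 2129 alone, with identities of 62.7% to 68.4% that left them outside the rule. They were 3 windows of 5, 5 and 7 counts on copy 2 and 1 window of 5 counts on copy 1. Domain 3 held 5 counts in piglet 524, 27 in piglet 2129 and 17 and 21 in the runs of piglet 512. It was listed in neither piglet 2134 nor piglet 2383. Domain 4 held 7 counts in piglet 2129, 5 in run 2 of piglet 512 and 5 in piglet 2134, all at or near the lowest count that a list can show.

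Domain 5 forms a disulphide bond with the IgA heavy chain. On copy 2 it held 14 counts in piglet 524, 16 in piglet 2129, 13 in each run of piglet 512 and 10 in piglet 2134. These listed counts were close, but their shares were not. The 14 stood among 56334 counts in piglet 524, and the 10 among 192861 in piglet 2134. On copy 1, whose members all had their middle base in domain 5, the counts were 20 in piglet 2129, 17 and 6 in the runs of piglet 512 and 6 in piglet 2134. Of these, 10 counts in piglet 2129 and 10 in run 1 of piglet 512 came from windows that share a stretch, at 100% identity, with the copy 2 windows counted as linker. A window is placed by its middle base, which was assumed to lie at opposite ends of a stretch on the inverted copies. The linker, the stretch before the membrane in which the receptor is cut to free the secretory component, held 7 counts in piglet 524, 18 in piglet 2129, 14 and 12 in the runs of piglet 512 and 5 in piglet 2134. The site at the start of the linker, at residues 567 to 568, was the 1 PIGR site of 12 that was listed in 4 piglets. No PIGR site was listed in 5 piglets, 5 were listed in 3, 3 in 2 and 3 in 1 piglet. A site here is a run of windows of 1 copy whose middle bases lie at most 15 bases apart.

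The cytoplasmic tail, which carries the signals for sorting to the basal membrane and for transport, held 8 counts in piglet 524, 22 in piglet 2129 and 9 and 5 in the runs of piglet 512. It was listed in neither piglet 2134 nor piglet 2383. The transmembrane segment had no member. The members closest to the rule's limit had 70.5% and 70.8% identity, and the closest window left out had 69.6%. In all, 12 windows on chromosome 9 matched PIGR below the limit without overlapping a member, the deepest with 13, 15 and 12 counts in piglet 2129 and the runs of piglet 512 at 57.7% identity. Adding those from 60% identity upwards moved the difference between genotypes little, as given further on.

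**Figure D2:**
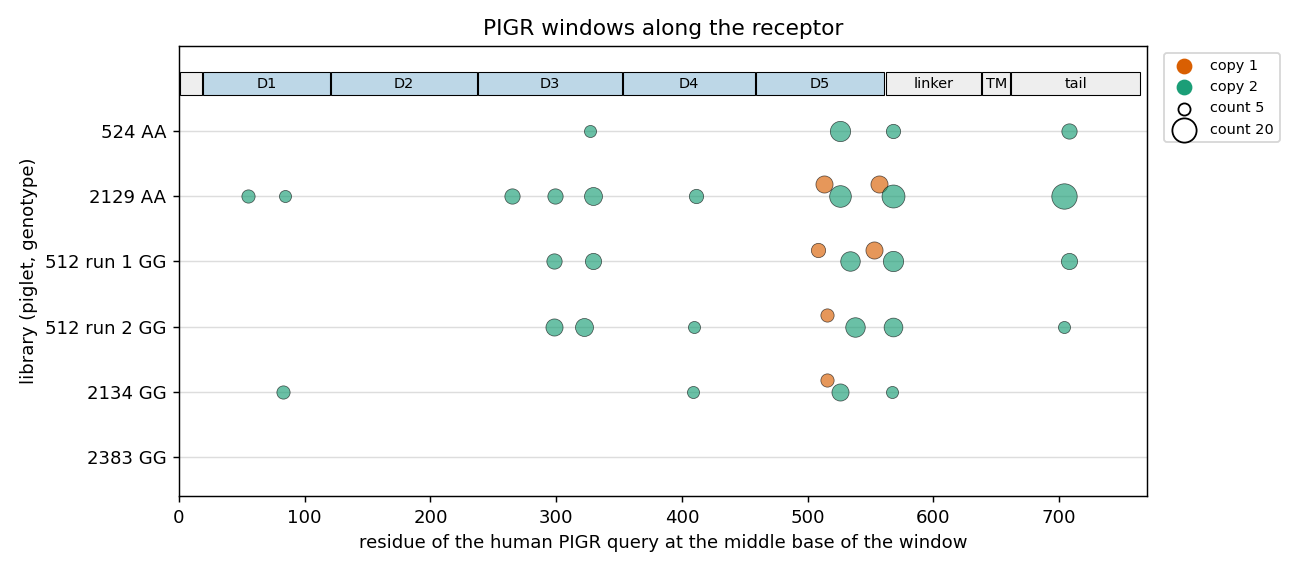
Position of each PIGR window along the human protein (horizontal axis, residue at the middle base) in the 6 libraries (rows), with the area of a circle showing the listed count and colour the genomic copy; D1 to D5 are the immunoglobulin-like domains and TM the transmembrane segment. Circles stack up in domain 3, domain 5, the start of the linker and the tail, and the row of piglet 2383 is empty.

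IGLC windows lay at 3 places on chromosome 14. Copy 1 (chr14:49931928-49932359, forward) held 9 windows, copy 2 (chr14:49985728-49986230, reverse) held 19 and copy 3 (chr14:50966078-50966497, reverse) held 8. Windows of copies 1 and 2 that met the rule matched the query at 100%, and those of copy 3 at 87.0% to 92.4%. Near-identical lambda constant genes and lambda-like genes of other light chains could not be told apart by these matches. Copy 1 held 0 counts in piglet 524, 22 in piglet 2129, 28 and 25 in the runs of piglet 512, 11 in piglet 2134 and 0 in piglet 2383. Copy 2 held 38, 81, 75, 75, 21 and 13 counts in the same order, and copy 3 held 21, 50, 46, 41, 11 and 13. Copy 2 was the highest in 5 of 6 libraries, and in piglet 2383 copies 2 and 3 were equal.

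Reads on IGLC fell on few places of the constant domain, the part of the light chain that pairs with the first constant domain of the heavy chain. The site at residues 47 to 53 of copy 2 held 12 counts in piglet 524, 20 in piglet 2129, 18 and 15 in the runs of piglet 512, 10 in piglet 2134 and 13 in piglet 2383. The matching site of copy 3, at residues 47 to 49, held 11, 21, 18, 15, 11 and 13. These were the 2 of 15 IGLC sites listed in all 5 piglets, and their counts ranged from 10 to 20 and from 11 to 21, beside 26 to 153 for the gene's sum. These counts are not corrected for depth. On copy 2 the 10 came from piglet 2134, with 192861 counts in all, and the 13 from piglet 2383, with 42354. Their shares were therefore not as close as their counts. Residues 26 to 30 of copy 2 held 8 counts in piglet 524, 13 in piglet 2129, 15 and 16 in the runs of piglet 512, 5 in piglet 2134 and none in piglet 2383.

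The site with the highest IGLC counts, at residues 87 to 92 of copy 2, held 32 counts in piglet 2129 and 33 and 27 in the runs of piglet 512, and it was not listed in piglets 524, 2134 and 2383. On copy 3 the matching site, at residues 85 to 88, held 10 counts in piglet 524, 22 in piglet 2129, 28 and 26 in the runs of piglet 512 and none in the other 2 piglets. The site that ends the constant domain, which holds the cysteine that bonds with the heavy chain, held 18 counts in piglet 524, 8 in piglet 2129 and 9 in each run of piglet 512. Piglet 524 was thus highest at the end of the domain while it was unlisted at the strongest site of the same copy. Of the other IGLC sites, 6 were listed in 1 piglet, 2 in 2 and 4 in 3, counting those already named.

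**Figure D3:**
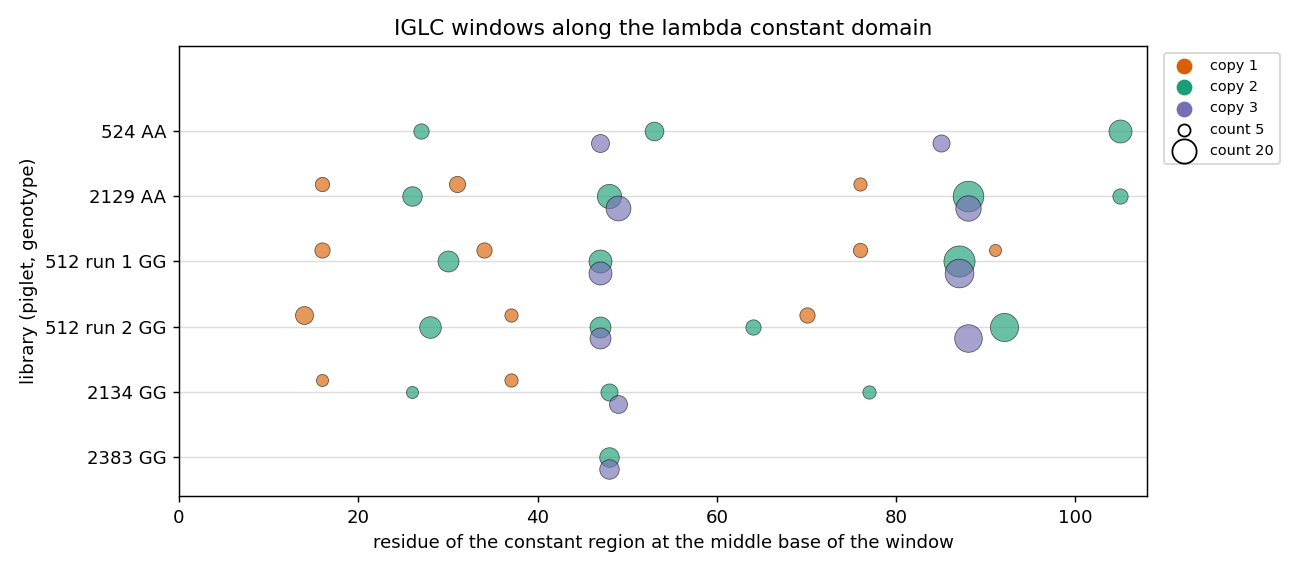
Position of each IGLC window along the constant domain (horizontal axis, residue at the middle base) in the 6 libraries (rows), with circle area showing the listed count and colour the genomic copy; windows whose middle base lay beyond the end of the match are not drawn. The site near residue 48 is the only one present in every row, with 10 to 21 counts on copies 2 and 3.

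Counts differed between windows that were paired across inverted copies. If the middle base is the low end of the reads on both strands, on a forward copy it marks the start of the stretch as the protein is read and on a reverse copy its end. Windows of both copies were therefore paired where their sequences were alike and these bounds lay 15 to 70 bases apart in 1 library. The miRNA check did not bear out the assumption for forward windows, so paired counts may not come from the same stretch. For IGLC, 12 pairs of copies 1 and 2 in 4 libraries had 0 mismatches between the bounds, and the forward copy was lower in 11 and equal in 1. The ratio of forward to reverse counts had a median of 0.492 (range 0.188 to 1). For PIGR, the forward copy was lower in 5 of 5 pairs in 4 libraries, with a median ratio of 0.600 (range 0.462 to 0.714). The bounds lay 33 to 66 bases apart for IGLC, with a median of 39, and 32 to 69 for PIGR, with a median of 42.

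Between copies on the same strand, windows listed on both had close counts. For IGLC copies 2 and 3, 8 such pairs in 5 libraries had a median ratio of 1 (range 0.909 to 1.45), and 3 of 8 pairs were equal. The widest ratio was at residue 88 in piglet 2129, with 32 counts on copy 2 and 22 on copy 3. Stretches listed on 1 copy alone are not in these pairs. Residues 26 to 30 of copy 2 had no site on copy 3, and piglet 524 had 10 counts at residues 85 to 88 of copy 3 and none at the matching site of copy 2. Summed over all windows, copy 2 was above copy 3 in 5 of 6 libraries, at 38 against 21 in piglet 524 and 81 against 50 in piglet 2129. Reads may have been counted on several copies, so no test was made on the pairs.

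**Figure D4:**
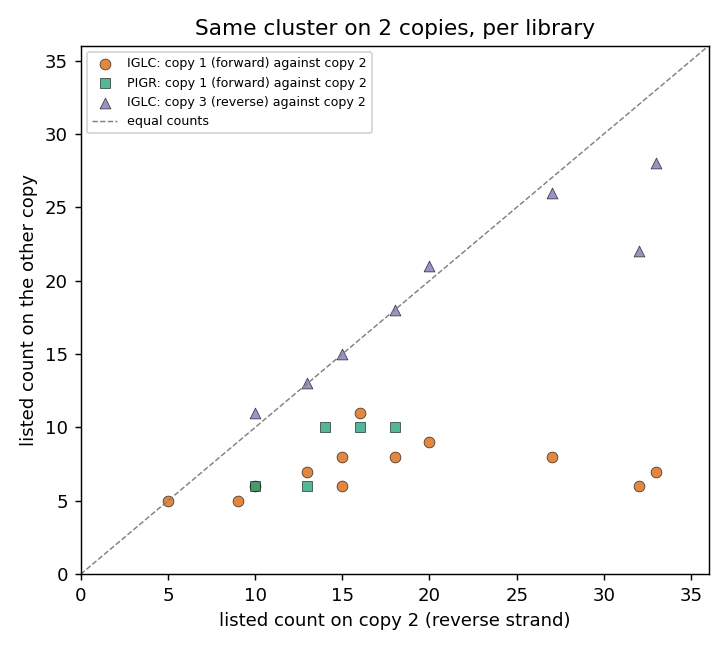
Listed counts of paired windows, taken as the same stretch, on copy 2 (horizontal axis) and on another copy (vertical axis), 1 point for each pair of windows in a library; the dashed line marks equal counts. Pairs of copies on opposite strands lie on or below the line, and the 8 pairs of IGLC copies 2 and 3 scatter around it, with 1 farthest off at 32 and 22 counts.

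The repeat run of piglet 512 shows the technical spread. PIGR had 8 sites in the 2 runs, of which 6 were listed in both, 1 in run 1 alone and 1 in run 2 alone, and at shared sites the counts differed by at most 4. IGLC had 12 sites, 8 of them in both runs and 2 in each run alone, with a largest difference of 6. Sums over each gene were 70 and 62 for PIGR and 149 and 141 for IGLC. The PIGR site of run 1 alone, at residues 553 to 557 of copy 1, held 10 counts, and that of run 2 alone held 5. The IGLC sites of 1 run alone held 5 to 8 counts. A site of up to 10 counts in 1 run can thus be unlisted in the other run of the same piglet. The single-library sites above fall in that range. Later values of piglet 512 are sums of both runs.

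The study's design asks whether GG and AA piglets differ. Neither gene differed between genotypes beyond the spread between piglets. Scaled by TMM, which corrects for library size and makeup, with 2 counts put in for a region that a library did not list, PIGR was 52.6 in piglet 524 and 117 in piglet 2129. It was 76.0 in piglet 512, 32.0 in piglet 2134 and 18.7 in piglet 2383, and the last value consists of filled-in counts alone. The groups overlapped, because piglet 512 lay between the AA piglets. The mean was 84.9 ± 45.7 (SD, n = 2) in AA piglets. In GG piglets it was 42.2 ± 29.96 (SD, n = 3). The difference of the mean log2 values, GG minus AA, was -1.11 (two-sided exact permutation p = 0.3, adjusted over both genes 0.5). With 2 against 3 animals the smallest possible p is 0.1.

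IGLC was 80.2 and 148 in the AA piglets 524 and 2129, and 164, 38.2 and 43.7 in the GG piglets 512, 2134 and 2383. Both the highest and the lowest value were GG. The mean was 114 ± 48.1 (SD, n = 2) in AA piglets. In GG piglets it was 82.1 ± 71.3 (SD, n = 3), and the log2 values differed by -0.73 (two-sided exact permutation p = 0.5, adjusted 0.5). Full sibs did not move alike. In the pair 524 and 512, the GG piglet was higher by 0.52 for PIGR and 1.03 for IGLC on the log2 scale, whereas in the pair 2129 and 2134 the difference was -1.84 for PIGR and -1.93 for IGLC. Without piglets 2134 and 2383, the libraries of low mitochondrial share, the difference turned to 0.042 for PIGR and 0.68 for IGLC (exact permutation p = 1 and 0.667 over 3 splits).

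Piece by piece, the same comparison was made with limma over all 2777 merged regions that had at least 10 counts in at least 2 piglets. A merged region joins overlapping windows. Of the 6 PIGR regions 4 were tested, and the regions of domains 1 and 4 were too low. All 4 were lower in GG. Their log2 differences had a median of -1.26, beside 41.3% of all tested regions lower in GG and a median of 0.20. They passed only through the piglets in which they were high, and 3 of the 4 were unlisted in at least 2 of 5 piglets, so this count is a description. No member region was called at an adjusted p under 0.05, beside 0% of all regions (0 of 2777 by limma, 241 with an unadjusted p under 0.05, or 8.68%). With the sib pair as a block, 25 regions were called and no member was among them.

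The PIGR region with the smallest p was the cytoplasmic tail. Its listed counts were 8 and 22 in the AA piglets 524 and 2129, 14 in piglet 512 over both runs, and none in piglets 2134 and 2383. Scaled, the listed values were 10.5 and 21.3 in AA and 7.94 in piglet 512. The log2 difference was -1.78 (SE 0.68) with an unadjusted limma p of 0.0377 and an adjusted limma p of 0.532. Such a p with a lower value in GG occurred in 2.05% of all tested regions. Domain 5 with the linker on copy 2 differed by -1.36 (SE 0.81), domain 3 by -1.17 (SE 1.04) and copy 1 by -0.27 (SE 0.91). Their adjusted p-values from limma were 0.532, 0.626 and 0.890. Leaving out 1 piglet moved these values. Domain 5 on copy 2 was -0.52 without piglet 2383, domain 3 was -0.58 without piglet 2134 and -2.19 without piglet 524, and copy 1 was -1.60 without piglet 524 and 0.20 without piglet 2383.

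All 3 IGLC regions were tested. Copy 2 differed by -0.95 (SE 0.68) and copy 3 by -0.74 (SE 0.66), while copy 1 differed by 0.31 (SE 1.08). Their adjusted p-values from limma were 0.575, 0.631 and 0.893. With 1 piglet left out, copy 2 ranged from -1.64 without piglet 512 to -0.57 without piglet 2383, and copy 3 from -1.31 without piglet 512 to -0.21 without piglet 2134. The sign of copy 1 turned to -1.09 without piglet 524 and to -0.44 without piglet 512. Copies 1 and 2 share sequence, and the difference between them was not tested.

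Other genes of the IgA pathway and the B lineage were taken from a list of 25, of which 9 were searched by protein sequence and 4 were found. JCHAIN, the J chain, held 29 counts in piglet 524, 53 in piglet 2129, 52 and 53 in the runs of piglet 512, 45 in piglet 2134 and 5 in piglet 2383 over its matching windows. With every window of its 3 merged regions, the basis on which PIGR and IGLC were summed, JCHAIN held 79 and 129 counts in the AA piglets 524 and 2129, and 215, 87 and 26 in the GG piglets 512, 2134 and 2383. The gene values of JCHAIN, IGKC and IGLV given next rest on matching windows. IGKC, the kappa constant region, held 7, 26, 22, 20, 5 and 0 in the same order. Lambda variable segments (IGLV) held 70, 168, 229, 251, 84 and 58 over 7 regions, 6 of which had the same counts in every piglet and are uncertain as single loci. FCGRT, the heavy chain of the neonatal Fc receptor that carries IgG across epithelia, held 15 counts in run 2 of piglet 512, 18 in piglet 2134 and none elsewhere. The 15 were 5 counts, the lowest that a list can show, at each of several regions of chromosome 6. The 18 were 11 and 7 at other regions there. The same reads may be counted at several of them.

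The heavy chains IGHA, IGHM and IGHG and the B cell genes CD79A and MS4A1 were searched and not found, which does not show that they were absent, since the queries were largely human. Among JCHAIN, IGKC and IGLV, 11 regions were tested, 6 higher and 5 lower in GG, with a median of 0.04 and 0 called. The 6 higher regions are the IGLV regions of equal counts. By gene, the log2 difference was -0.44 for JCHAIN, -0.99 for IGKC and 0.00 for IGLV, beside -1.11 for PIGR and -0.73 for IGLC. Over the merged regions, it was -0.57 for JCHAIN, -0.99 for IGKC and -0.03 for IGLV. IGKC, like PIGR, was unlisted in piglet 2383.

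The genes whose values over the 5 piglets were most like PIGR, among 10 compared, were IGLC, JCHAIN and IGLV. Likeness was the root mean square difference of log2 scaled values after each gene's own mean was taken off, so a lower value is closer, and it was 0.384 for IGLC, 0.472 for JCHAIN and 0.643 for IGLV. IGLC was closest to IGLV (0.375), then PIGR (0.384) and JCHAIN (0.612). Over whole merged regions the order of the 3 closest was the same for both genes, with JCHAIN at 0.438 from PIGR and 0.502 from IGLC. The farthest from both was APOA1, an apolipoprotein made by absorptive epithelial cells, at 2.24 from PIGR and 2.15 from IGLC. All genes share the same 5 libraries, and PIGR in piglet 2383 is a filled-in value.

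**Figure D5:**
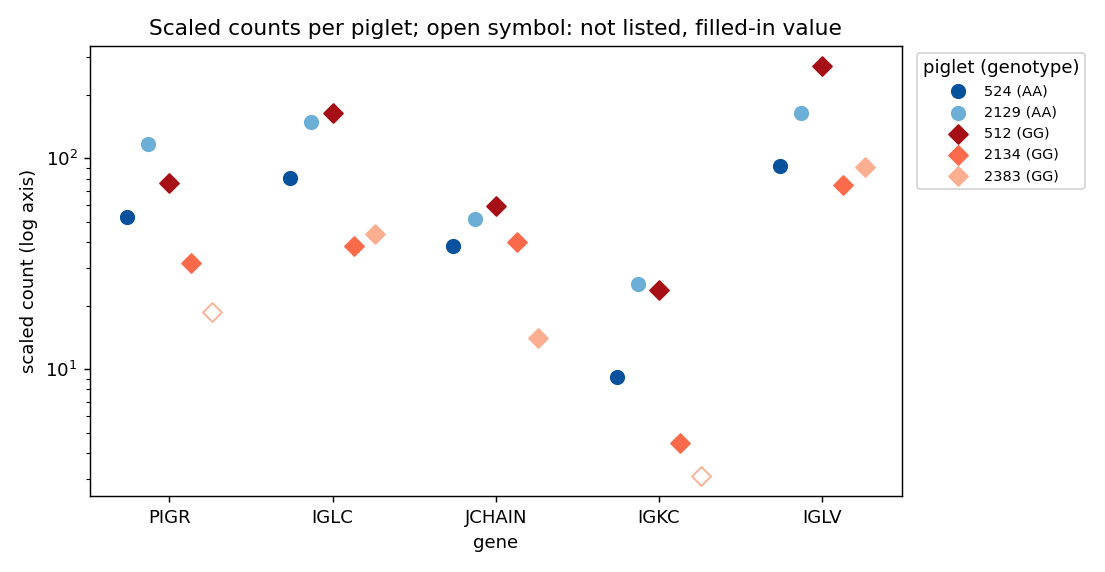
Scaled counts (log axis) of PIGR, IGLC, JCHAIN, IGKC and IGLV in the 5 piglets; circles are AA, diamonds GG, and open symbols filled-in values of genes that were not listed. Piglet 512 (GG) is the highest of the 5 for IGLC, JCHAIN and IGLV, and the other GG piglets include the lowest value of every gene.

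PIGR is a gene of epithelium, but genes of absorptive epithelial cells had other patterns across piglets than PIGR had. By the same measure of likeness, FABP1 and ANPEP were both at 1.54 from PIGR. Of the 9 absorptive cell markers set down for the check of the tissue label, 4 were searched and found, and ANPEP and APOA1 were listed in all 5 piglets. ANPEP, the brush border aminopeptidase N, held 16 counts in piglet 524, 343 in piglet 2129, 311 and 382 in the runs of piglet 512, 824 in piglet 2134 and 72 in piglet 2383. APOA1 held 5, 120, 282, 232, 364 and 152 in the same order. The fatty acid binding proteins FABP1 and FABP2 were not listed in piglet 524, and in piglet 2134 they had their highest counts, 78 and 18. These counts are not corrected for depth, and piglet 2134 was the deepest library. Scaled, ANPEP was 44.7 in piglet 524 and 734 in piglet 2134, and APOA1 was 9.20 and 323. On the same scale PIGR was 52.6 in piglet 524 and 32.0 in piglet 2134, and IGLC was 80.2 and 38.2. Between these piglets, ANPEP and APOA1 thus went the other way from PIGR and IGLC.

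LYZ, a lysozyme, held 6 counts in piglet 524 and 36 in piglet 2129 and was not listed in the GG piglets. Its 2 windows matched at 74.6% identity at most, so a related lysozyme gene cannot be told apart. HBB, a red cell gene, held 10 counts in piglet 524 alone, and PRSS1, the pancreatic trypsinogen, was not found. The scaled means were 62.7 in AA and 284 in GG for APOA1, and 188 in AA and 418 in GG for ANPEP. The part of the tissue's makeup in the values of PIGR and IGLC was not tested. In bulk tissue, fewer cells of a type and less RNA per cell cannot be told apart.

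In base composition the members stood above most windows. The GC content had a median of 58.2% in PIGR windows (range 52.7% to 59.7%) and 63.7% in IGLC windows (48.3% to 69.2%), against 46.8% in all 37376 windows outside the mitochondrial genome. These windows hold mainly coding sequence of the genes, but some reach beyond the match. The IGLC window with the lowest GC content matched over 13 residues only. The effect of base composition on the counts was not tested.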

How the data were processed

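Small RNA from duodenum was sequenced in 6 libraries. The authors deposited, per the file headers, a list per library of whole-number counts, each with chromosome, start, end and sequence. The aligner, the build and the counting rule are each not given in the sources used here. Lists hold no count under 5. Members and gene lists were chosen with earlier results of these data known.

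Windows were searched in 6 frames (BLAST 2.17.0) with 24 proteins written from memory and not checked against a database, PIGR in human form. A window takes its highest-scoring match. Overlapping windows were merged into regions. Counts were scaled by TMM, trimming 30% of ratios and 5% of abundances (size factors 0.641 to 1.76). A region not listed was given 2 counts, and 1 was added before log2, which shrinks differences of low regions. Gene totals were compared by exact permutation over 10 splits of 5 piglets. Regions were compared by limma 3.58.1 (R 4.3.3) with a mean-variance trend and Benjamini-Hochberg adjustment. The fit was run on simulated data with a set spread between piglets, which does not show how it performs at the spread seen here. Genes named are PIGR, IGLC, every merged region with a member, and those of a list of 25 found by match; for likeness, the 3 closest of those with at least 10 counts in at least 4 piglets.

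Pairing comes from the labels, which name full sibs. Over 2777 regions, the difference 524 minus 2129 had a Pearson r of 0.21 with 512 minus 2134, a description across regions that are not independent. Piglets are separate animals. Python 3.11.15, NumPy 2.4.6, SciPy 1.17.1 and matplotlib 3.10.9 were used.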

Additional observations from a re-analysis of the deposited data

How the results depend on the processing

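The log2 difference between genotypes was below 0 under 19 of 20 alternatives for each gene. Some of these left the sum as it was and add no support. The limit of 40 residues returned the reported -1.11 for PIGR and -0.73 for IGLC. Identity limits of 80% and 60% also returned -0.73 for IGLC. Without piglets 2134 and 2383, an alternative chosen after seeing the data, the difference was 0.042 for PIGR and 0.68 for IGLC; the cause was not tested. Leaving out 1 piglet at a time gave -1.77 to -0.52 for PIGR and -1.40 to -0.27 for IGLC. The values nearest 0, -0.52 and -0.27, came without piglet 2129. With the sib pair as a replicate block, 4 piglets entered and the differences were -0.66 for PIGR and -0.45 for IGLC, and 25 regions were called. PIGR depended on the value given to unlisted regions, at -2.49 with 0 counts and -0.83 with 4. With an identity limit of 60% the PIGR difference was -1.0. A limit of 80% left only the windows of the cytoplasmic tail, so the -1.78 found there is the value of that region alone. Regions called numbered 0 in the reported fit, 47 with scaling by total counts alone, 88 with no filter on low counts, 0 to 4 with 1 piglet left out, and 0 under the other alternatives. No member region was called in any. Total-count scaling moved the median of all regions from 0.20 to 0.07 and the differences to -1.26 for PIGR and -0.88 for IGLC. Among single regions, PIGR copy 1 turned to 0.20 without piglet 2383 and with the sib block (-1.60 to 0.20 with 1 piglet left out), and IGLC copy 1 to -1.09 without piglet 524 and -0.44 without piglet 512 (-1.09 to 1.63). The planned edgeR and DESeq2 fits were not run, because the lists leave out counts under 5. Depth limits the rest: most sites of both genes held under 20 counts, and a window under 5 counts is not listed.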

Other observations

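Windows below the identity limit placed PIGR reads on further stretches of copy 1. On that copy, 1 window of 5 counts in piglet 2129 and 2 windows of 6 and 5 counts in run 2 of piglet 512 matched at 67.2% to 69.6%. Windows matching the end of the cytoplasmic tail at 57.7% held 13, 15 and 12 counts on copy 2, and 6, 8 and 5 on copy 1, in piglet 2129 and runs 1 and 2 of piglet 512. None of these 9 windows entered the totals.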
